A study of Mus musculus with 8 samples.

Results

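Ribosomal protein genes encode the proteins of the cytosolic ribosome, and accessibility was read at the regions next to their ends in leukemic and non-leukemic mouse marrow cells. A region was taken where its centre lay within 1 kb of either end of a protein-coding gene whose symbol is Rpl or Rps with a number and at most 1 letter, or Rplp0, Rplp1, Rplp2 or Rpsa. Genes of the Rps6k kinases and pseudogenes were left out. The rule named 81 genes, 50 of the large subunit and 31 of the small, and 75 of them had a region, which gave 101 of the 160978 regions of the table. Of these genes 49 had 1 region, 25 had 2 and 1 had 3, and 1 region served 2 of the genes.

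The assay was ATAC-seq, which reads open chromatin from where a transposase can insert, on 8 libraries of bone marrow cells sorted as cKit+ Lymph- Ery-, a stem and progenitor fraction. The AML (acute myeloid leukemia) libraries were 2 of URE-delta/+;Tet2+/- and 2 of URE-delta/+;Tet2-/- genotype. The normal libraries were 1 each of URE+/+;Tet2+/+, URE-delta/+;Tet2+/+, URE+/+;Tet2+/- and URE+/+;Tet2-/-, from controls matched for an age that is not given. The URE is an upstream enhancer of Spi1, the gene of the myeloid factor PU.1, and Tet2 encodes an enzyme that oxidises methylated cytosine. All AML libraries carry the URE deletion and lost 1 or both copies of Tet2, and 0 normal libraries carry both changes, so in these libraries disease cannot be told apart from having both changes at once. How the Tet2 allele was made is not stated in the labels.

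The authors compared leukemic with non-leukemic cells of low PU.1 and gave 1 log2 fold change per region, positive where leukemic cells were more open. The labels do not say which libraries entered either side, and only 1 normal library carries the URE deletion. AML libraries were on lanes 6 and 7, normal Tet2+/+ libraries on 6 and 7, and the other normal ones on 8. The part of lane in the folds was not tested. Since each library's own values were not used, depth and the spread between mice are unknown, and fewer cells of a type cannot be told apart from less open chromatin per cell. Of the markers of the sorted fraction, 9 of 10 had a region at a gene end, all but Myb, and Kit stood at a log2 fold change of -0.19 (adjusted p = 0.913) by the authors' deposited table. All 8 erythroid and all 10 lymphoid markers, of cells the sort should deplete, also had a region at a gene end, with medians of 0.08 and 0.13 on the log2 fold scale. The 12 regions of the sorted fraction's own markers had a median of -0.22 with 5 above 0. At an adjusted p under 0.001 Cd34 and Ptprc of that fraction were less accessible, at -2.48 and -2.63, by the authors' deposited table, and neither depleted list had a call. At 0.05 the sorted fraction's markers had 1 region more accessible, at Cebpa, and 5 less. The erythroid list had 1 less, at Hbb-bt, and the lymphoid list 2 less, at Cd79b and Cd3d, with 0 more in either. Over all regions 1.24% were more and 1.22% less accessible at 0.001, and 7.98% and 9.21% at 0.05. The part of cell make-up in the results was not tested.

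A ribosome holds 1 copy of nearly every ribosomal protein, and cells keep the supply of these proteins even. Their genes are short, are among the most transcribed genes of dividing cells, and start at a run of pyrimidines, the TOP element, through which the growth kinase mTOR sets how strongly the mRNA is translated. Many carry small nucleolar RNA (snoRNA) genes in their introns. Loss of 1 copy of several of them causes Diamond-Blackfan anaemia, a failure of red cell formation, so their supply matters to blood progenitors.

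The promoters were read from RefSeq sequences of GRCm38.p6, which held 61 of the 81 genes with 73 starts. The following stretches run 5′ to 3′ over 90 bases, 70 before the start and 20 from it on. They are 1 promoter of each of the 4 member genes on chromosome 2, and those whose region over the start had the highest (Rpl31) and the lowest (Rps6) fold. Capitals mark pyrimidines from the first C within 5 bases of the start that leads at least 5 of them, where a longer run may begin further upstream, and the letters CCGGAAG, which ETS factors are known to bind.
Rpl7a (chr2:26910737-26910826, plus strand): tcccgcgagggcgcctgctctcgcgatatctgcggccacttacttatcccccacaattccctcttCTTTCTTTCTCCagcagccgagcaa
Rpl12 (chr2:32961642-32961731, plus strand): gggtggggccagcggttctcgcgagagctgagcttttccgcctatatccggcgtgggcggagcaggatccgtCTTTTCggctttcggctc
Rpl35 (chr2:39005112-39005201, minus strand): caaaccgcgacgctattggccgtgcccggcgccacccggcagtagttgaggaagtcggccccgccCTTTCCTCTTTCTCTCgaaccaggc
Rps21 (chr2:180257309-180257398, plus strand): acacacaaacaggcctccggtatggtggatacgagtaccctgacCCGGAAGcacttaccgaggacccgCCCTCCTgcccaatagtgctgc
Rpl31 (chr1:39367781-39367870, plus strand): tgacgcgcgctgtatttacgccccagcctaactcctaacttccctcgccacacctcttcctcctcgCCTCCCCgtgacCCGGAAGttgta
Rps6 (chr4:86857348-86857437, minus strand): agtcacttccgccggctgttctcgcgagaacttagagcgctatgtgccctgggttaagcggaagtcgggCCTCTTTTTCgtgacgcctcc
All 6 stretches show such pyrimidines, with 16 in capitals at Rpl35 and 6 at Rpl12. Rpl35, Rpl7a and Rpl12 have at least 1 further pyrimidine directly before the capitals. Rps21 has another start in the table, not shown, that has neither feature in the same stretch. Rpl31 and Rps21 also hold the ETS letters.

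Over all member starts, a C followed by at least 4 pyrimidines began within 5 bases of 31 of 73 starts (42.5%), against 18.3% of all 32851 starts in the RefSeq table. CCGGAAG stood on either strand of 26 promoters of 300 bases (35.6%), against 8.86% of all promoters. GAGGAAG, letters within the known PU.1 motif, stood in 20.5% against 13.6%. The letters GGGCGG of Sp and Klf factors stood in 57.5% against 35.7%, AGATGGC of YY1 in 13.7% against 6.40%, CACGTG, the E-box, in 11.0% against 7.15%, and GCATGCG of NRF1 in 6.85% against 3.58%. CCAAT and TATAAA were held by 30.1% and 9.59% of member promoters, against 37.4% and 13.6% of all. CCGGAAG and GAGGAAG share their GGAAG core but cannot cover the same bases in full, and no motif listed here contains another. A match describes the letters of these windows and is not a bound site. The most abundant region of each gene had a median fold of 0.44 (log2) over the 22 genes with CCGGAAG and a region, and 0.32 over the 34 with a region and without it. For the pyrimidine run the medians were 0.31 over 26 genes with it and 0.40 over 30 without it.

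Most regions at ribosomal protein genes had small positive folds, that is, higher values in leukemic cells, and none passed the authors' threshold. Of the 101 regions 91 (90.1%) had a fold above 0 and 10 a fold below 0, with a median log2 fold change of 0.45, or 1.36-fold, and quartiles of 0.26 and 0.77. Over all 160978 regions the median was 0.02 with 50.6% above 0, and over 16291 regions at the ends of other protein-coding genes it was 0.22 with 60.8% above 0. Without chromosome 2, those ends had a median of 0.25 with 63.1% above 0 over 14987 regions. Between 0 and 1 on the log2 scale lay 77 member regions, above 1 lay 14, between -1 and 0 lay 8 and under -1 lay 2.

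At the authors' adjusted p under 0.001, 0 member regions were called more accessible and 0 less accessible. The background was 1.24% more and 1.22% less accessible over all regions, or 1.2% and 1.53% at other coding gene ends, so about 1 call each way would match it. At an adjusted p under 0.0001 the count was again 0 each way, beside 0.387% more and 0.252% less accessible over all regions and 0.399% and 0.381% at other coding gene ends. At an adjusted p under 0.05, 10 regions were more and 2 less accessible, or 9.90% and 1.98% of the members. The background at that threshold was 7.98% and 9.21% over all regions, and 10.1% and 8.04% at other coding gene ends. The share of members with higher accessibility was therefore near the background, and that of members with lower accessibility was under it. These background shares include chromosome 2, where a long stretch without member regions had mostly negative folds. On the other chromosomes, 1592 of 14987 other coding gene ends were more and 913 less accessible at 0.05. At 0.001 these counts were 193 and 157. At an unadjusted csaw p under 0.05 there were 32 higher (31.7%) and 2 lower (1.98%), against 20.03% and 12.9% at other coding gene ends and 14.98% and 16.27% over all regions. No test of the members as a group was made, since regions are not replicates.

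**Figure D1:**
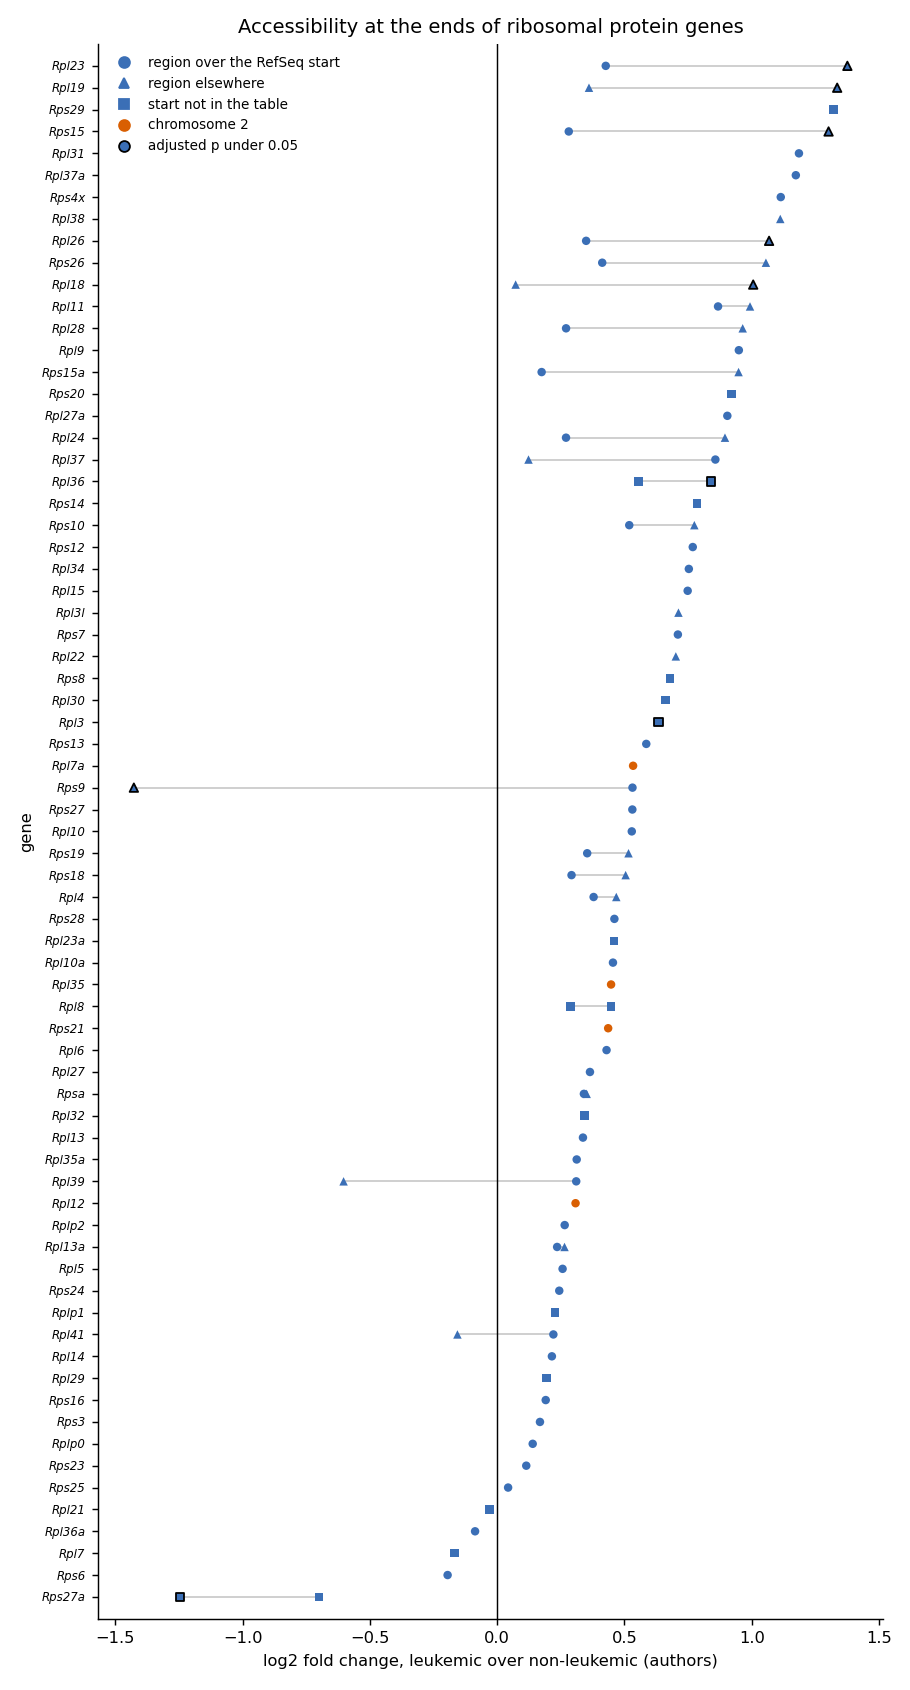
Log2 fold change (leukemic over non-leukemic, authors' value) of each region at the ends of 71 of the 75 ribosomal protein genes with a region, 1 row per gene, ordered by its highest region. Circles lie over a RefSeq start, triangles lie elsewhere, squares belong to genes whose start is not in the table, orange marks chromosome 2 and a black outline an adjusted p under 0.05. The rows of Rps27a, Rps6, Rpl7, Rpl36a and Rpl21 lie wholly below 0, and the others reach above it.

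Promoter regions of the members stood close together. For 51 genes a region lay over a RefSeq start, and 49 of these 51 regions had a fold above 0, with a median of 0.36 (1.29-fold) and quartiles of 0.26 and 0.53. They ran from -0.19 at Rps6, whose protein is the classic substrate of S6 kinase, to 1.19 at Rpl31, a large subunit protein, by the authors' deposited table. The other promoter below 0 was that of Rpl36a, at -0.09, by the authors' deposited table. Rps6 and Rpl36a had adjusted p of 0.553 and 0.808 by the authors' deposited table. The lowest adjusted p of the promoter regions was 0.0648, at Rpl31, by the authors' deposited table, so 0 of the 51 passed 0.05.

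The most abundant promoter regions had folds under the promoter median. Rpl13a stood at 0.24 with a log2 abundance of 4.94, Rps25 at 0.04 with 4.50 and Rplp2, of the ribosomal stalk, at 0.27 with 4.48, by the authors' deposited table. Abundance is the authors' read level of a region, is not scaled by length, and is not compared here as a level between genes. Of genes whose start was not in the table, Rpl7 stood at -0.17 with the highest abundance of all members, 5.35, by the authors' deposited table. At the other extreme were narrow regions away from the start with log2 abundances of -2.24 at Rpl39, -1.82 at Rpl37 and -1.79 at Rpl11, by the authors' deposited table. They had folds of -0.60, 0.12 and 0.99 by the authors' deposited table. The promoters of Rps4x, a small subunit gene on the X chromosome, and Rps26 were also low in abundance, at -1.61 and -1.19, with folds of 1.11 and 0.41 by the authors' deposited table.

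**Figure D2:**
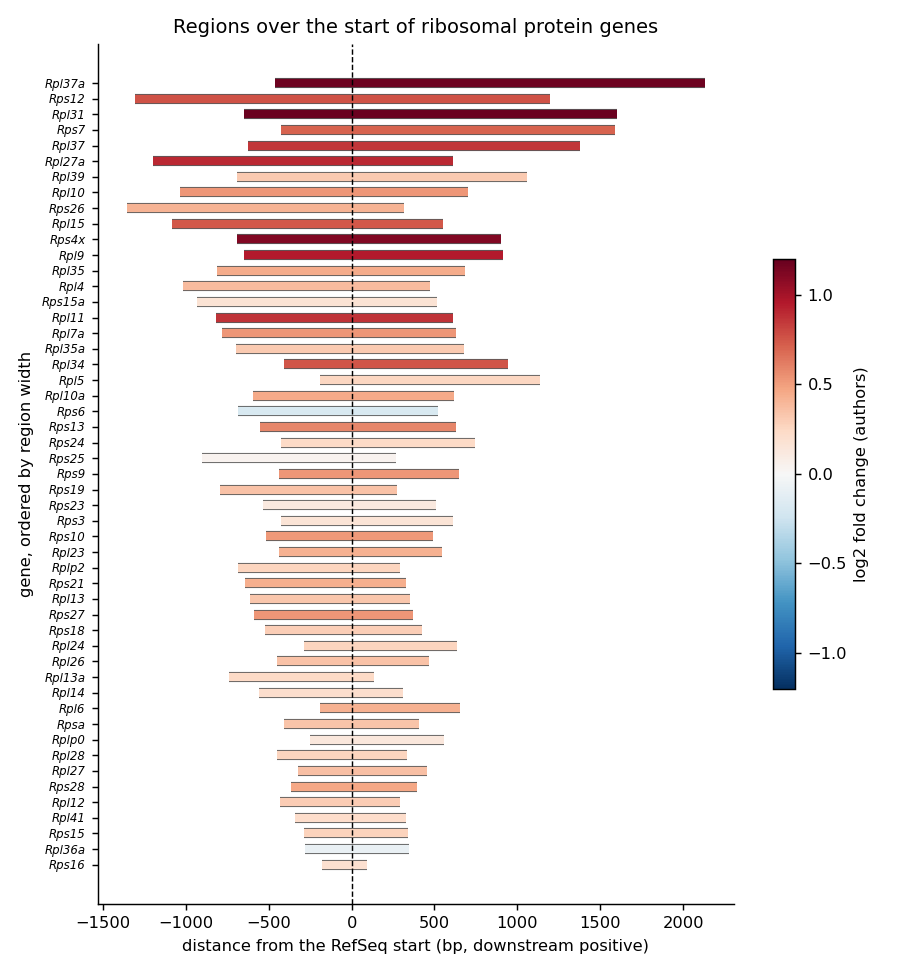
Extent of the 51 regions that lie over a RefSeq start, in bp from the start (downstream positive), ordered by width and coloured by the authors' log2 fold change. The wider regions at the top, such as Rpl37a (1.17) and Rpl31 (1.19), have the deeper red of higher folds, and Rps6 (-0.19) and Rpl36a (-0.09) are the only 2 in blue.

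Wide promoter regions had a higher median fold than compact ones, and a lower median abundance (1.15 against 3.53, log2). The 22 promoter regions over 1200 bp wide had a median fold of 0.62 (log2), and the 29 remaining ones of 0.29. Of the wide ones, 9 lay below the highest 1 of 5 equal abundance classes, among them Rpl31, Rpl37a, Rps12, Rpl27a, Rpl9 and Rps4x, and their median was 0.90. Rps29, with a start not in the table, had a region of 2758 bp with a fold of 1.32 and a log2 abundance of -1.18 by the authors' deposited table. In the whole table, fold and abundance appear to come from 1 window of a region. Among 35 pairs of regions with the same fold and abundance but unlike p, the wider region had the larger p in 35, with p in a ratio of whole numbers in 23 and the larger p at 1 in 12. A p of 1 was held by 0 of 71741 regions up to 300 bp wide and by 3565 of the wider ones. The fold of a wide region may thus not describe all of it.

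Of the 10 regions that passed 0.05 with higher accessibility, 0 lay over a start in the promoter table. Rpl23, a large subunit gene, had a region of 252 bp at 1.38 (adjusted p = 0.00563) by the authors' deposited table, with its centre 5242 bp beyond the start, while its promoter region stood at 0.43. Rpl19 had a region 4346 bp beyond its nearest start at 1.34 (adjusted p = 0.0167) by the authors' deposited table. Rps15, of the small subunit, had 1 at 1.30 (adjusted p = 0.00952) by the authors' deposited table, and its promoter stood at 0.28. Regions of Rpl26 and Rpl18 stood at 1.07 (adjusted p = 0.0263) and 1.01 (adjusted p = 0.0354) by the authors' deposited table.

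Rpl3, a gene of the core of the large subunit next to the peptidyl transferase centre, had 1 region at 0.63 (adjusted p = 0.0177) by the authors' deposited table, with a log2 abundance of 4.15. Its fold was the smallest of the 10. Rpl36 had 2 regions, at 0.84 (adjusted p = 0.0189) and 0.55 (adjusted p = 0.214) by the authors' deposited table, and the first also lay at an end of Micos13, the second at an end of Lonp1. Of the 10 regions 5 lay away from the starts that the promoter table gives for their gene, and 5 belonged to genes whose start was not in it. The Rpl18 region among the first 5 does hold the 5′ end of that gene in the gene table, the only 1 of the 25 regions away from a listed start to do so. Rps29, Rpl31 and Rpl37a, among the 8 highest folds, did not pass 0.05, with adjusted p of 0.0553, 0.0648 and 0.112 by the authors' deposited table.

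Within single genes the same order was seen. In 18 genes a promoter region and 1 other region were both measured, and the other region had the higher fold in 14 and the lower abundance in 16. Rps15a, for example, stood at 0.17 over its start and 0.95 at its far end, and Rpl28 at 0.27 and 0.96, by the authors' deposited table. Rps9, Rpl39, Rpl41 and Rpl37 had the order turned. Over the 25 regions elsewhere the median was 0.71, with 22 above 0. Rpl26, Rps19 and Rps10 followed the common order, with 0.35 and 1.07, 0.35 and 0.52, and 0.52 and 0.77 by the authors' deposited table.

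Accessibility was lower at few regions, and only Rps9 and Rps27a passed 0.05. The region just past the far end of Rps9, a small subunit gene, lay at chromosome 7, 3706916 to 3707467. It stood at -1.43 (adjusted p = 0.00174) by the authors' deposited table, the lowest fold and the lowest adjusted p of all members. The promoter region of Rps9 stood at 0.53 (adjusted p = 0.171) by the authors' deposited table. Rps27a, which encodes ubiquitin fused to a small subunit protein, had both of its regions below 0, at -1.25 (adjusted p = 0.0304) and -0.70 (adjusted p = 0.426) by the authors' deposited table. The first also lay at an end of Mtif2, a mitochondrial initiation factor gene, and the second at an end of Clhc1. The other members among the 8 lowest folds were Rpl39, Rps6, Rpl7, Rpl41 and Rpl36a, from -0.60 to -0.09 and with adjusted p of at least 0.489 by the authors' deposited table.

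**Figure D3:**
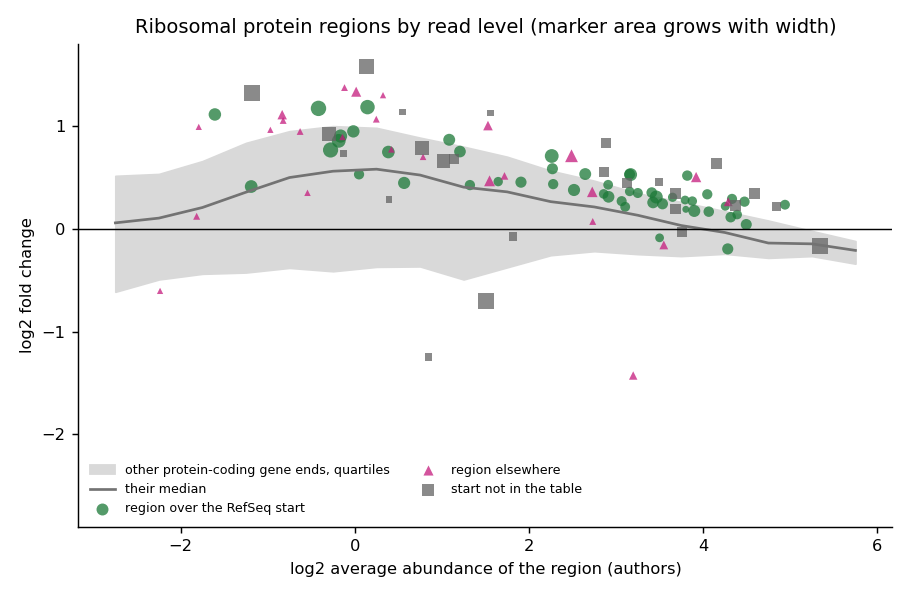
Log2 fold change against log2 average abundance (both the authors' values) of the 101 member regions, by position, with marker area growing with region width. The grey band and line are the quartiles and the median of other protein-coding gene ends in steps of 0.5 in abundance; the line rises to 0.58 at abundances from 0 to 0.5 and then falls to -0.21, and 85 of the 101 member regions lie above it.

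Folds varied with abundance at other coding gene ends, and most members lay above the median of other coding gene ends of like abundance. Other coding gene ends had a median fold (log2) of 0.10 at log2 abundances from -2.5 to -2, of 0.58 from 0 to 0.5 and of -0.21 at 5.5 to 6, a span larger than the median of the members. The authors' normalization is not given, so the zero of the folds may itself shift with abundance. Set against other coding gene ends in the same step of 0.5 in abundance, 85 of 101 member regions (84.2%) lay above the median of the step, by a median of 0.25. Of the 51 promoter regions 47 (92.2%) did, by a median of 0.22. The step medians include other coding gene ends on chromosome 2, which had a median fold of -0.50, and were not recomputed without them. In the highest of the 5 abundance classes 63 of 72 members (87.5%) were above 0, with a median of 0.34, against 59.0% and 0.15 for other coding gene ends. Within the members, Pearson's r of fold with abundance was -0.49 and Spearman's rho -0.65 over 101 regions, which share the libraries and the normalization. At other coding gene ends, where the median fold rose and then fell with abundance, r was -0.10 and rho -0.16 over 16291 regions.

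Genes of both subunits mostly had positive folds. The 61 regions of large subunit genes had a median of 0.43 with 56 above 0, and the 41 of small subunit genes 0.46 with 36 above 0, with 1 region counted in both. The 27 genes with a region that carry snoRNA genes had 35 regions with a median of 0.38, and the 66 other regions had 0.46. Rpl4, the host of 5 snoRNA genes, stood at 0.38 over its start by the authors' deposited table. The 25 regions that also lay at the end of another coding gene had a median of 0.46, and the 76 others 0.44.

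Genes known from Diamond-Blackfan anaemia had only positive folds, beside 90.1% of all member regions above 0. All 12 genes of the list had a region, and their 18 regions had a median of 0.72, beside 0.45 for all members. Their median log2 abundance was 0.75 against 2.49 for all members, and the part of abundance in their folds was not tested. Of the 18 regions, 2 were at an adjusted p under 0.05, among them that of Rpl26. At that threshold 9.90% of all members and 10.1% of other coding gene ends were more accessible, so this count is near the background. The promoter of Rps19, the gene most often changed in that disease, stood at 0.35 (adjusted p = 0.431) by the authors' deposited table. Rpl5 and Rpl11, which bind Mdm2 when ribosome assembly fails, stood at 0.26 and 0.87 over their starts by the authors' deposited table. Rps24 stood at 0.24, Rpl35a at 0.31, Rps7 at 0.71 and Rpl15 at 0.75 by the authors' deposited table. Rps29 stood at 1.32, Rps10 at 0.52 and 0.77, and Rps26 at 0.41 and 1.06 by the authors' deposited table. The region at Rps14, a gene lost in a human myelodysplastic syndrome, stood at 0.79 (adjusted p = 0.196) by the authors' deposited table.

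Of the 81 genes, 6 had no region with its centre within 1 kb of an end. Rps2 and Rpl17, both widely expressed, had 1 region further inside the gene, at 0.27 with a log2 abundance of 4.68 and at 0.05 with 3.19, by the authors' deposited table. Rps27l, a p53 target and paralog of Rps27, had 2 inside, at 0.72 and 0.32 by the authors' deposited table. The Rps2 region holds the start that the promoter table gives, and the first of Rps27l holds 2, so both are promoter regions outside the rule's window. Rpl10l and Rpl39l, paralogs of the testis, and Rpl32l had 0 regions overlapping the gene. Rpl3l, the muscle paralog of Rpl3, had a region at 0.71 that also lies at an end of Msrb1 by the authors' deposited table.

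On chromosome 2, where a long stretch had mostly negative folds, the ribosomal protein genes had a median close to that of members elsewhere. Folds compare read levels, and DNA copy number in the stretch was not tested. The chromosome holds 4 of them, each with 1 region over its start. Rpl7a stood at 0.53 (adjusted p = 0.195), Rpl35 at 0.45 (adjusted p = 0.736), Rps21 at 0.44 (adjusted p = 0.404) and Rpl12 at 0.31 (adjusted p = 0.296) by the authors' deposited table. Their median was 0.44 and that of the 97 regions on other chromosomes 0.45, a difference of -0.00498 (chromosome 2 minus others). Among regions over a start alone the difference was 0.09. With 4 regions and a comparison chosen with results known, this is a description and no test was made.

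All 4 genes lie outside the low stretch. In steps of 5 Mb, 19 steps of chromosome 2 with at least 50 regions had a median under -0.8, all between 55 and 155 Mb, with medians from -1.12 to -0.87. Rpl7a, Rpl12 and Rpl35 lie at 26.9, 33.0 and 39.0 Mb, before the stretch, and Rps21 at 180.3 Mb, beyond it. The steps that hold them had medians of 0.25, 0.43, 0.28 and 0.37 over all their regions. Other coding gene ends had a median of -0.92 in the low steps (668 regions, 57 above 0) and 0.22 in the rest of chromosome 2 (636 regions). So the members give 0 regions with which to read the stretch.

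**Figure D4:**
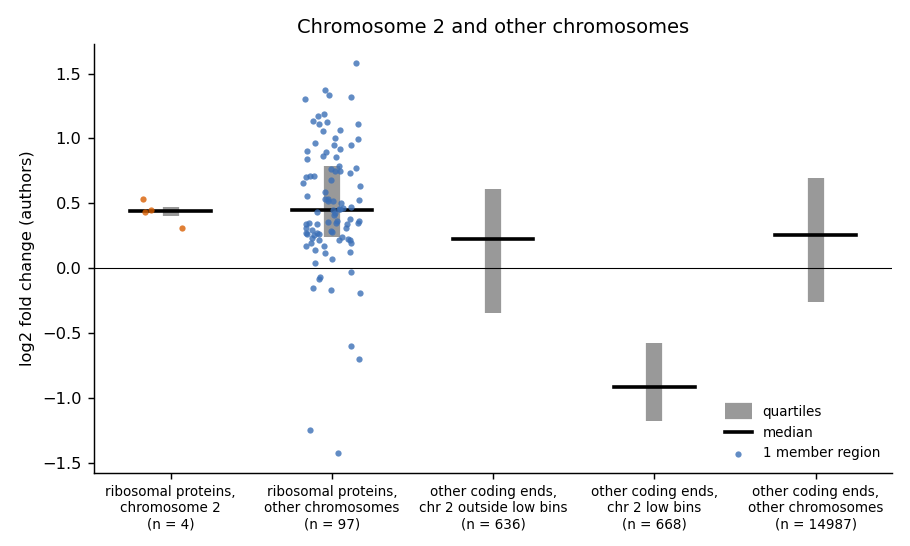
Log2 fold change of ribosomal protein regions on chromosome 2 and on other chromosomes (points, 1 per region), with the median (line) and quartiles (bar) of each group and of other protein-coding gene ends. The 4 orange points lie from 0.31 to 0.53, inside the spread of the other members, while other coding gene ends in the low steps of chromosome 2 centre on -0.92.

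The 97 member regions on other chromosomes, which include regions away from a start, ran from -1.43 to 1.58. Chromosome 7, with 14 of the genes, had 22 regions with a median of 0.31 and 20 above 0. On chromosome 9, 8 of 8 regions were above 0, from 0.04 to 0.47, and on chromosome 17, 9 of 9, from 0.29 to 0.84. On chromosome X, where all regions had a median of -0.45, the 5 member regions had a median of 0.31 with 3 above 0.

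Genes of the ribosome with other roles also had positive medians, and outside assembly factors 0 of their regions were called at 0.001. Over all regions 1.24% were more and 1.22% less accessible at that threshold, so few calls in lists this small would match the background. Ribosomal protein genes whose symbols fall outside the rule, such as Fau and Rps3a1, had 7 regions with a median of 0.29, from -0.30 at Rpl36al to 0.89 at Rps3a1 by the authors' deposited table. Mitochondrial ribosomal protein genes, which serve the separate ribosome of that organelle, had 90 regions at 75 of 78 genes, a median of 0.29 and 78.9% above 0. At 0.05, 9 of them were more and 1 less accessible, the highest being Mrpl51 at 1.68 and the lowest of the called Mrps26 at -0.73 by the authors' deposited table. Mrps26 lies in the low steps of chromosome 2, and outside those steps 9 of 88 regions were more and 0 less accessible. Of other coding gene ends, 10.1% were more and 8.04% less accessible at 0.05, and no list's count was tested against this background. Translation factors of the TOP class had 23 regions with a median of 0.30, and 3 passed 0.05, at Eif4b (1.49), Eef1b2 (1.43) and Eef1d by the authors' deposited table. Against the step medians of like abundance, 59 of 90 mitochondrial (65.6%), 17 of 23 translation factor (73.9%) and 26 of 44 assembly factor regions (59.1%) lay above. The difference between these shares and that of the members was not tested.

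**Figure D5:**
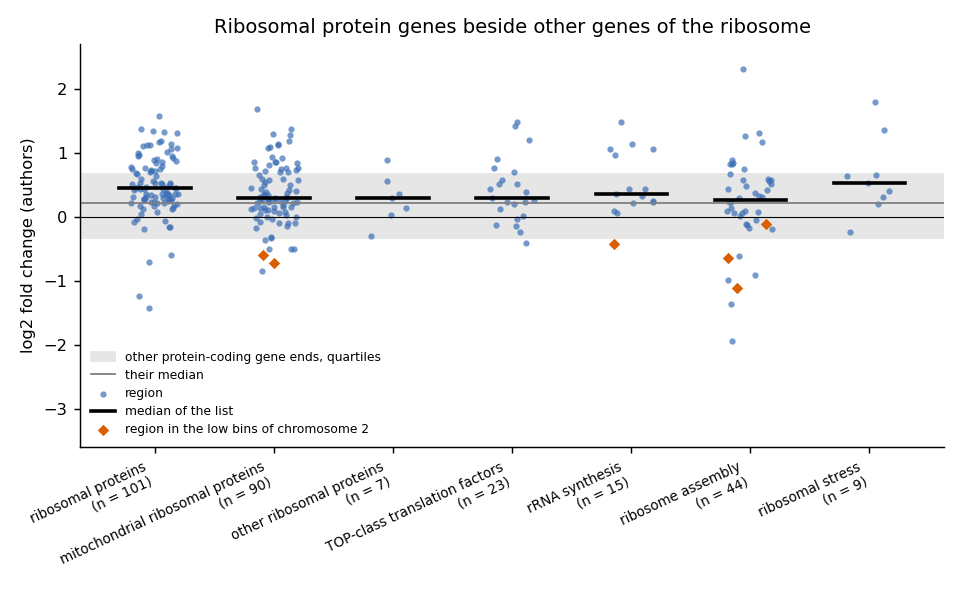
Log2 fold change of each region at the ends of ribosomal protein genes and of 6 other gene lists, with the list median (black line), over the quartiles of other protein-coding gene ends (grey). Member values centre on 0.45, mitochondrial ribosomal proteins on 0.29 and ribosome assembly factors on 0.27, and the orange diamonds, in the low steps of chromosome 2, all lie below 0.

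Of 44 regions at 35 genes of ribosome assembly, with a median of 0.27, 1 was more and 2 were less accessible at 0.001, beside 1.24% and 1.22% of all regions, so counts this small are near the background. Rrs1, needed to build the large subunit, had 1 region that rose, at 2.30 (adjusted p = 4.71e-05), and another at 0.09 by the authors' deposited table. Wdr12, of the PeBoW complex that processes ribosomal RNA, had 1 that fell, at -1.94 (adjusted p = 8.22e-04), and another at 0.88 by the authors' deposited table. Eif6, which keeps the subunits apart until assembly is done, had 1 that fell, at -1.36 (adjusted p = 4.78e-04) by the authors' deposited table. Its other regions stood at -0.91 (adjusted p = 0.00615) and -0.62 (adjusted p = 0.412) by the authors' deposited table. Eif6 lies on chromosome 2 in the step from 155 to 160 Mb, whose median was -0.69. Nop10 and Nop56, of the small nucleolar particles, lie in the low steps of chromosome 2 and stood at -1.11 and -0.64, with adjusted p of 0.0167 and 0.0152, by the authors' deposited table, and Nop56 had another region at -0.11.

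Genes of ribosomal RNA synthesis had 15 regions with a median of 0.36 and 14 above 0. Of them Polr1d, a subunit shared by RNA polymerases I and III, stood at 1.48 (adjusted p = 0.0174), Cd3eap, of RNA polymerase I, at 1.06 (adjusted p = 0.0394) and Myc, a driver of ribosome production, at 0.97 (adjusted p = 0.0281) by the authors' deposited table. Polr1b, in the low steps of chromosome 2, was the only 1 below 0, at -0.43 (adjusted p = 0.46) by the authors' deposited table. Of the 15 regions 3 were more and 0 less accessible at 0.05, beside 10.1% and 8.04% of other coding gene ends. In the p53 response to free ribosomal proteins, 9 regions had a median of 0.53 and 8 were above 0. At 0.05, 2 of these were more and 0 less accessible, and neither list's count was tested against the background. Mdm2, the ligase of p53 that Rpl5 and Rpl11 bind, had regions at 1.79 (adjusted p = 0.00145) and 0.64 (adjusted p = 0.536), and Mdm4 1 at 1.35 (adjusted p = 0.0101), by the authors' deposited table. Trp53 itself stood at 0.31 (adjusted p = 0.593) by the authors' deposited table.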

How the data were processed

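Open chromatin was measured by ATAC-seq in 8 libraries, 4 AML and 4 normal, by the labels. Per the submitters' processing notes, reads were processed against GRCm38 (mm10) with Bowtie2 2.4.1, SAMtools 1.10.2 and Genrich 0.6; their roles and settings, and any shift for the transposase's cut, are unstated there. The authors' deposited log2 fold change and log2 average abundance per region are named from the columns' position and range, and the file title names csaw. The authors deposited a p-value per region and its adjusted form, and recomputing the Benjamini-Hochberg adjustment over all regions gave the latter to within 2.39e-15. Their sets at 0.001 (2002 more and 1961 less accessible) match the full table exactly. The base from which starts count is unstated; coordinates are as deposited.

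Regions were joined to gene ends of the RefSeq GRCm38.p6 table (49997 genes, 21900 protein coding, without strand) and promoters to its starts, with Python 3.11.15 and pandas 2.3.3. Counts, shares, medians, quartiles and correlations were computed without p-values, so no test beyond the authors' was made. Depth is unknown. The joining was tested on simulated data. Named genes are member regions at 0.001, the 8 highest and lowest folds, the 5 most and least abundant, all on chromosome 2, 12 anaemia genes, genes with 3 regions or none, and in other lists those at 0.001 and the extremes; others were named after their values were seen. A few members that the rule would name are not reported here by name. The members and lists were chosen with earlier results of these data known. Alternatives were other windows, thresholds, widths and member sets. Some 324 pseudogenes resemble the members in name, so reads may be shared between near-identical copies.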

Additional observations from a re-analysis of the deposited data

How the results depend on the processing

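At an adjusted p under 0.05, 10 member regions were more and 2 less accessible, against 0 and 0 at 0.001 and at 0.0001. With the window widened to 2 kb, 1 region was called more accessible, 1899.5 bp from an end of Rpl13 (log2 fold change 1.55, adjusted p = 6.83e-04, in the authors' deposited table). The median log2 fold change of the members ran from 0.36 to 0.47, and the difference between chromosome 2 and other chromosomes from -0.04 to 0.09, over windows of 500 bp and 2 kb, any overlap, 1 region per gene, shared gene ends left out, the 8 further genes added, and the lowest abundance left out. The settings with promoter regions alone and without regions over 1200 bp were chosen after seeing the data and lie in the same ranges. The median was 0.45 without chromosomes 2 and X. Leaving out a replicate was not possible, and no paired analysis was possible because only the authors' comparison was used, which holds no library's own value. Unknown depth limits every fold.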

Other observations

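Ribosomal protein pseudogenes, mostly copies of mRNAs set back into the genome, had a lower median fold than the genes. Of 324 pseudogenes named like the members, 49 had a region within 1 kb of an end and away from the ends of coding genes. The median fold of these 53 regions was 0.08 (log2), and 29 of them (54.7%) were above 0, with a median log2 abundance of -1.72 against 2.49 for the members. At an adjusted p under 0.001, 0 of them were called, and at 0.05, 2 were more and 1 less accessible. Over all regions the shares more and less accessible were 1.24% and 1.22% at 0.001, and 7.98% and 9.21% at 0.05. The lowest was at Rpl6l, with -2.30 (adjusted p = 0.00534), and the highest at Rps23-ps1, with 1.48 (adjusted p = 0.0115), in the authors' deposited table. The difference between pseudogenes and genes was not tested, and abundance differed with it.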
